A study of Homo sapiens with 6 samples.

Results

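The 10 genes described here encode machinery that returns escaped proteins from the Golgi to the endoplasmic reticulum (ER), and 2 of the proteins it returns. They were 3 KDEL receptor genes (KDELR1, KDELR2, KDELR3), 5 genes of the COPI vesicle coat (COPA, COPB1, COPB2, COPE, ARCN1) and 2 chaperone genes (HSPA5, HSP90B1), and all 10 were found by symbol among the 63677 genes of the count table. The genes were chosen by their place in this pathway after KDELR2 had been seen to differ in the same comparison, so their fold changes and p-values are given as a description.

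The libraries came from LoVo, an established human colorectal cancer cell line, transfected for 48 h at 25 nM by lipofection. 3 libraries were from cells given a combination of 2 siRNAs against SNHG15, a long noncoding RNA, and 3 from cells given a scramble siRNA, which shares the transfection but not the target. Because both siRNAs went into the same cells, loss of SNHG15 and any other action of the siRNAs cannot be told apart, and in bulk RNA fewer cells of a type and less RNA per cell cannot be told apart either. The study's methods describe 3 biological replicates per condition of 1 cell line.

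Library totals ran from 3446922 counts (scramble replicate 3) to 10256710 counts (scramble replicate 2). SNHG15 was present at 289, 276 and 261 CPM (counts scaled to a library of 1000000) in the scramble libraries and at 77.0, 82.9 and 86.9 CPM in the siRNA libraries, a difference of -1.74 ± 0.12 on the log2 scale (SE; adjusted p = 2.62e-05, edgeR's quasi-likelihood test). Every library's level lay on the side that its label gives. Of 10 colon epithelial marker genes, KRT8, KRT18, CDH1 and CDX2 were counted in all 6 libraries, KRT19, KRT20, CDH17 and VIL1 were listed at 0 throughout, and EPCAM and LGALS4 did not exceed 4 counts. PPIB, an ER cyclophilin named after its values were seen, had 2 to 17 counts, although PDIA3 of the same list had 1310 to 3775. Whether such low counts reflect the cells or the counting of reads cannot be told apart, which also bears on PDIA6. Summed over the list, epithelial markers were led by KRT8 and CDX2 and lay at 102 to 110.2 CPM in scramble and 106 to 117 CPM in siRNA libraries. The 6 fibroblast markers together (led by COL1A1 and COL1A2) reached at most 9 counts in a library, and the 3 endothelial (CDH5, VWF and KDR) and 5 leukocyte markers (led by CD68 and PTPRC) at most 2 counts. siRNA replicate 1 differed from replicates 2 and 3 by 14.4 and 20.5 chi-square units per degree of freedom over the genes tested, against 4.20 to 9.54 between scramble libraries and 4.65 between siRNA replicates 2 and 3. This measure grows with depth, so the 4.20 and 7.18 of the scramble pairs with replicate 3, the smallest library, are not on a par. The 9.54 was between scramble replicates 1 and 2, the 2 deepest libraries. Where siRNA replicate 1 lay apart from its group for a member, the value without it is given.

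Soluble proteins of the ER lumen carry a short signal at their carboxyl end, in its best known form Lys-Asp-Glu-Leu, or KDEL. KDEL receptors are membrane proteins that bind this signal in the acidic early Golgi and carry the protein back to the neutral ER, where it is released. The return journey is made in vesicles coated by COPI, a complex of several subunits (coatomer) that is recruited by the small GTPase ARF1. HSPA5 (BiP), an ATP-driven chaperone that also holds the unfolded protein response (UPR) sensors inactive, and HSP90B1 (GRP94), the HSP90 of the ER, are among the most abundant cargoes.

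The signal can be read in the genome at the end of each coding sequence. The 30 coding bases below run 5′ to 3′ on GRCh37 from the ninth last codon to the stop codon, and capitals mark the 4 codons of the KDEL signal. They are shown because the 2 chaperones write the same 4 amino acids alike except for Glu, GAG in HSPA5 and GAA in HSP90B1. PDIA6, which is described further on, is placed beside them.
HSPA5, chr9:127998871-127998900, minus strand: gaggatacagcagaaAAAGATGAGTTGtag
HSP90B1, chr12:104341411-104341440, plus strand: gaatctacagctgaaAAAGATGAATTGtaa
PDIA6, chr2:10924384-10924413, minus strand: cttgatgacttagggAAAGATGAGTTGtga

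The receptors do not end in this signal. KDELR1 and KDELR2 are close paralogs with coding sequences of 636 bases each, and KDELR3 has 642. Their coding ends are given to show how far the mRNAs of these paralogs differ even where the proteins end alike, with capitals marking the 5 of 30 bases that differ.
KDELR1, chr19:48886550-48886579, minus strand: aagggGaagaagTtGagtttgccGgcataG
KDELR2, chr7:6502772-6502801, minus strand: aagggAaagaagCtCagtttgccAgcataA
No 75-base stretch of the KDELR1 or KDELR3 transcript recurred in the exons of another gene, 75 bases being the read length. Of the KDELR2 transcript, 4.20% of such stretches recurred, all of them in DAGLB, a neighbour on the same strand whose exons overlap those of KDELR2 by 376 bases.

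KDELR2 was the receptor gene with the lower level after the siRNAs. KDELR2 (ENSG00000136240, chr7:6485584-6523821, minus strand, 5 exons in its canonical transcript) was measured at 264, 244 and 248 CPM in the scramble libraries and at 91.1, 114 and 103 CPM in the siRNA libraries. All 3 siRNA libraries lay far below the lowest scramble library, and the spread within each condition was small, with means of 252 ± 10.5 and 103 ± 11.3 CPM (SD, n = 3 each). The mean in siRNA libraries was 40.7% of that in scramble libraries, a log2 fold change of -1.30 with a 95% interval from -1.57 to -1.02 (SE 0.126, adjusted p = 0.000376 by edgeR's quasi-likelihood test). KDELR2 stood 4th of the 12507 genes tested by p-value and 22nd from the most negative fold change. The value was between -1.37 and -1.22 when any 1 library was left out, with an adjusted p of at most 0.00832. DAGLB, which shares sequence with it, was at 20.2, 24.1 and 21.4 CPM in scramble and 21.4, 17.8 and 17.8 CPM in siRNA libraries (log2 fold change -0.21, adjusted p = 0.449).

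**Figure D1:**
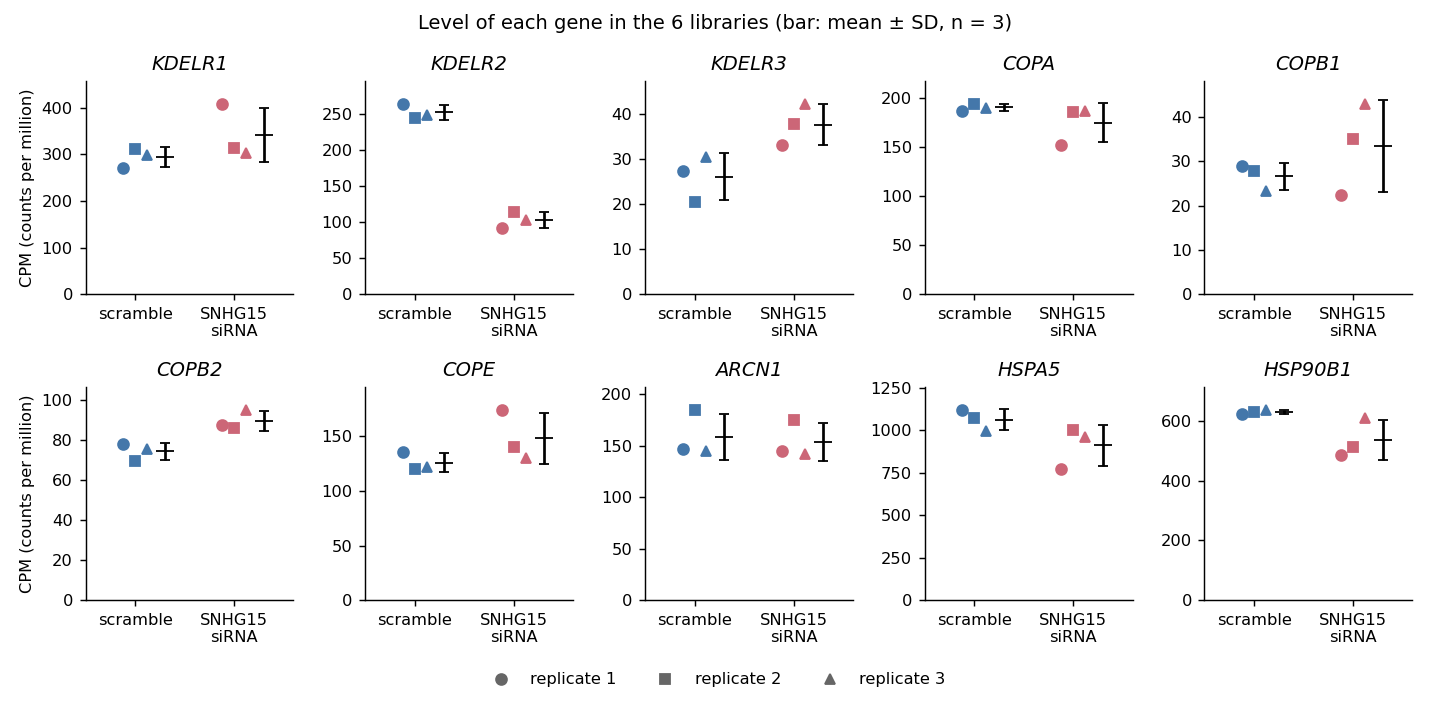
CPM of the 10 genes in each library, with a linear axis from 0 for each gene; blue symbols are scramble and red symbols SNHG15 siRNA libraries, symbol shape gives the replicate number, and the bar beside each condition is the mean ± SD of 3 libraries. KDELR2 falls from a mean of 252 to 103 CPM with a wide gap between the conditions, while for KDELR1, COPE, HSPA5 and COPA siRNA replicate 1 (red circle) lies apart from the other siRNA libraries.

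KDELR1 (ENSG00000105438, chr19:48885832-48894808, minus strand), the receptor with the highest counts, was at 271, 312 and 299 CPM in scramble and 408, 314 and 303 CPM in siRNA libraries. Only siRNA replicate 1 exceeded the range of the scramble libraries by more than 3 CPM. The log2 fold change was 0.22 (95% interval -0.08 to 0.52, adjusted p = 0.377) and 0.07 without that library. KDELR3 (ENSG00000100196, chr22:38864083-38879452, plus strand), the least counted of the receptors, was at 27.5, 20.4 and 30.5 CPM in scramble and 33.0, 37.7 and 42.3 CPM in siRNA libraries. Every siRNA library lay above every scramble library for KDELR3. Its log2 fold change of 0.55 (95% interval 0.18 to 0.93) did not pass at an adjusted p of 0.0789 in edgeR, and passed at 0.0307 (0.65) without siRNA replicate 1 and at 0.0401 (0.53) when genes of low count were not filtered. The unfiltered fit gave this smaller adjusted p at a like SE (0.172 in both). DDX17, an RNA helicase gene that overlaps KDELR3 by 10 exonic bases on the other strand, was called higher in the siRNA libraries (log2 fold change 0.77, adjusted p = 0.0227), a call that held in 3 of 6 analyses without 1 library. No 75-base stretch was shared between the transcripts of KDELR3 and DDX17.

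Levels of different genes can be compared only per length, and only as far as their reads were counted alike. Other genes overlap 9.57% of the exonic bases of KDELR2, 0.523% of those of KDELR3 and 0% of those of KDELR1. In RPKM, which are CPM divided by the union exon length in kilobases, the receptors together summed to 202, 212 and 212 in the scramble libraries and to 222, 189 and 183 in the siRNA libraries. The conditions overlapped in this sum, with siRNA replicate 1 the highest and the other siRNA libraries the lowest of the 6. The share of KDELR2 in this sum was 33.2, 29.3 and 29.7% in scramble and 10.4, 15.3 and 14.3% in siRNA libraries. KDELR1 held 62.7 ± 2.96% of the sum in scramble and 76.6 ± 4.55% in siRNA libraries (SD, n = 3), and KDELR3 6.55 ± 1.31% and 10.1 ± 2.17%. KDELR1 was thus the leading receptor transcript in all 6 libraries, and KDELR2 was second in each, closest to KDELR3 in siRNA replicate 3, at 14.3 and 12.1%. These shares follow from the same counts that chose KDELR2 and were not tested.

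**Figure D2:**
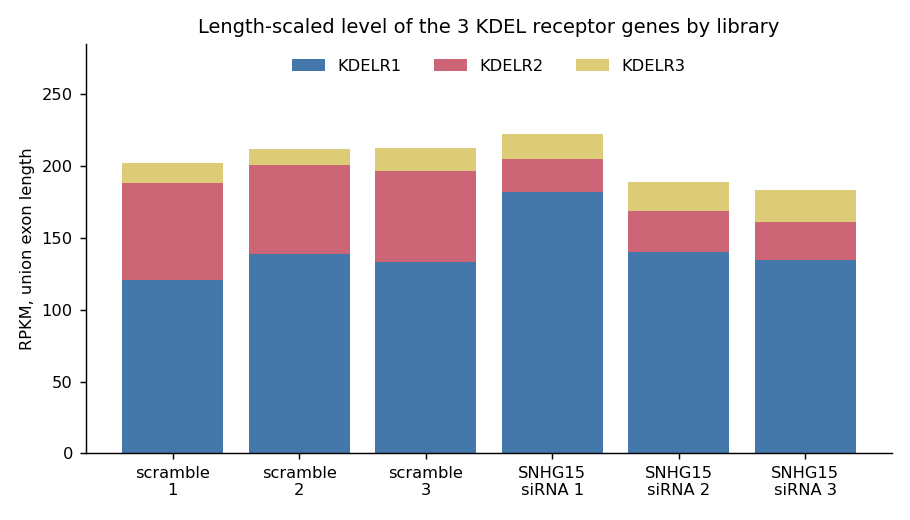
Stacked length-scaled levels (RPKM over union exon length) of KDELR1 (blue), KDELR2 (red) and KDELR3 (yellow) in each of the 6 libraries. The KDELR2 segment shrinks from about 30.7% to 13.4% of the column on average, while the column heights stay between 183 and 222 RPKM.

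Among the 10 genes, 1 (KDELR2) passed the test, against a background of 5.36% of all 12507 genes tested. Since this contrast chose KDELR2, nothing is read from the count. The libraries of the 2 conditions did not overlap for 5 of the 10 (KDELR2, KDELR3, COPA, COPB2 and HSP90B1), and they did not overlap for 28.8% of all genes tested.

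**Figure D3:**
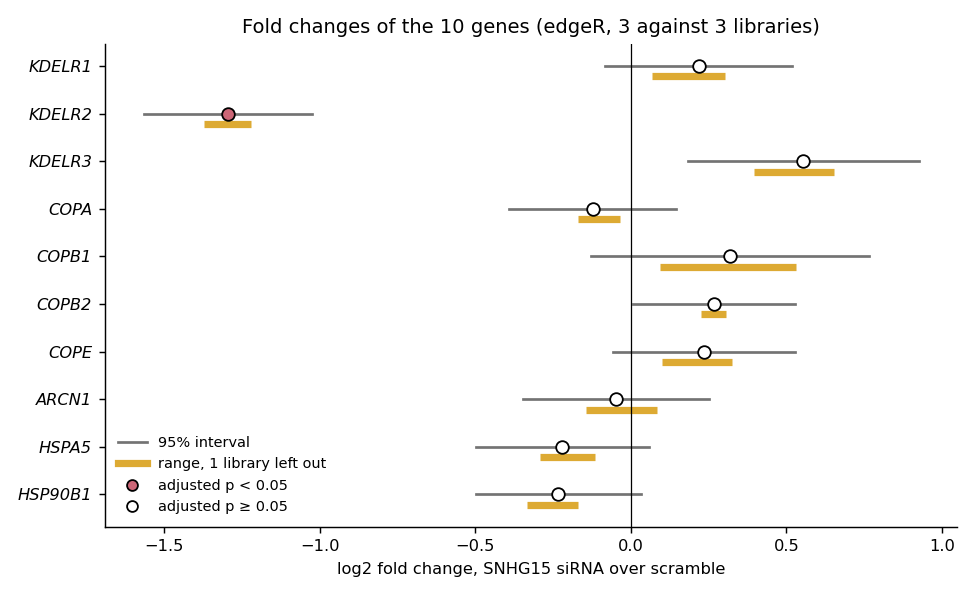
Log2 fold change (SNHG15 siRNA over scramble) of the 10 genes, with the 95% interval of the fit (grey line) and the range of values when 1 library at a time was left out (yellow bar); filled points have an adjusted p below 0.05. KDELR2 at -1.30 lies apart, and the other 9 values lie between -0.23 and 0.55.

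None of the 5 coat genes passed edgeR's test or DESeq2, and 1 of them, COPB2, had an unadjusted p under 0.05. Among all 12507 genes tested, 5.36% passed edgeR's test and 2820 had an unadjusted p under 0.05. COPI is built of an inner layer that binds membrane and cargo (the beta, delta, gamma and zeta subunits) and an outer layer (alpha, beta prime and epsilon). In the outer layer, COPA (alpha; chr1:160258384-160313356, minus strand) was at 187, 194 and 190.1 CPM in scramble and 152, 185 and 187 CPM in siRNA libraries, the low value being siRNA replicate 1. The conditions were separated by less than 1 CPM and the log2 fold change was -0.12 (95% interval -0.39 to 0.14, adjusted p = 0.596), and -0.03 without siRNA replicate 1. NCSTN, which overlaps COPA by 188 exonic bases on the other strand, had a log2 fold change of -0.02 (adjusted p = 0.950). COPB2 (beta prime; chr3:139072788-139108578, minus strand) was at 78.3, 69.9 and 75.4 CPM in scramble and 87.5, 86.2 and 95.1 CPM in siRNA libraries. All siRNA libraries were above the scramble libraries for COPB2, by a log2 fold change of 0.27 (95% interval 0.01 to 0.53) that did not pass (adjusted p = 0.208, edgeR). MRPS22, on the other strand, overlaps COPB2 and shares 19.1% of the 75-base stretches of its transcript, and was at 62.4 ± 6.15 CPM in scramble and 59.5 ± 5.29 CPM in siRNA libraries (SD, n = 3). COPE (epsilon; chr19:19010323-19030196, minus strand) was at 135, 120 and 122 CPM in scramble and 174, 140 and 129.7 CPM in siRNA libraries. The conditions overlapped for COPE, and its log2 fold change of 0.23 (adjusted p = 0.327) was 0.10 without siRNA replicate 1. An overlapping annotated gene that holds 18.2% of the 75-base stretches of COPE was listed at 0 in every library, as was one that holds 10.2% of those of COPB1.

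In the inner layer, COPB1 (beta; chr11:14464986-14521573, minus strand) was at 28.9, 27.8 and 23.2 CPM in scramble and 22.4, 35.0 and 43.0 CPM in siRNA libraries. siRNA replicate 1 was the lowest of the 6 libraries and replicates 2 and 3 the highest. The log2 fold change was 0.32 (95% interval -0.13 to 0.77, adjusted p = 0.389), and without siRNA replicate 1 it was 0.53 and passed (adjusted p = 0.0462, edgeR). ARCN1 (delta; chr11:118443105-118473748, plus strand) was at 146, 185 and 145 CPM in scramble and 145, 175 and 141 CPM in siRNA libraries. Replicate 2 was the highest of each condition, the conditions overlapped throughout, and the log2 fold change was -0.05 (95% interval -0.35 to 0.25, adjusted p = 0.874).

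The COPI genes as a whole add COPG1, COPG2, COPZ1 and COPZ2 to the 5 above. Of these 9, 0 passed edgeR's test (5.36% of all genes tested did) and 0 passed with DESeq2 (785 of the same 12507 genes did). An unadjusted p under 0.05 was reached by 1 of the 9, against 2820 of 12507 over all genes tested. The median log2 fold change of the 9 was 0.23, against a median of 0.00 over all genes tested. Of their values, 7 were positive and 2 negative, between -0.12 and 0.34. Without siRNA replicate 1 the median was 0.11, and it was 0.11 without siRNA replicate 3. Per length of union exon and on the mean over libraries, COPE was the most and COPG2 the least abundant COPI transcript, at 43.7 ± 2.94 and 3.82 ± 0.787 RPKM in the scramble libraries (SD, n = 3). COPE was highest in 5 and COPG2 lowest in 3 of the 6 libraries. The ratio between whichever subunits were highest and lowest in a library was 13.8, 13.2 and 10.5 in the scramble and 13.7, 13.9 and 8.88 in the siRNA libraries. With the canonical transcript length COPE was highest and COPG2 lowest in all 6 libraries, but COPA then stood at 35.8 in place of 10.8 RPKM and COPB2 at 22.8 in place of 3.98 RPKM in scramble libraries, because their union exons hold 17664 and 18721 bases and their canonical transcripts 5318 and 3275 bases. Only the level, not the fold change, depends on this choice. Other genes overlap 34.1% of the exonic bases of COPB2, 27.5% of those of COPG2 and 9.18% of those of COPE. How reads there were counted may also bear on the levels.

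The chaperones that the receptors retrieve lay slightly lower in the siRNA libraries without passing the test. HSPA5 (ENSG00000044574, chr9:127997132-128003661, minus strand) was at 1120.2, 1072 and 997 CPM in scramble and 773, 1004 and 959 CPM in siRNA libraries. siRNA replicate 1 was the lowest and replicate 2 exceeded scramble replicate 3, so that the conditions overlapped. The log2 fold change was -0.22 (95% interval -0.50 to 0.06, adjusted p = 0.331), and -0.12 without siRNA replicate 1. HSP90B1 (ENSG00000166598, chr12:104323885-104347709, plus strand) was at 624, 629.6 and 636 CPM in scramble and 485, 510.4 and 609.8 CPM in siRNA libraries. All siRNA libraries lay below the scramble libraries, whose SD was only 5.92 CPM, but the siRNA libraries differed among themselves (SD 66.0 CPM). The log2 fold change was -0.23 (95% interval -0.50 to 0.03, adjusted p = 0.280), and -0.17 without siRNA replicate 1. The intervals of both chaperones lie above the whole interval of KDELR2. The HSPA5 pseudogene HSPA5P1 had 0 to 8 counts in every library and the HSP90B1 pseudogenes HSP90B2P and HSP90B3P 25 to 119 and 2 to 14 counts, so that few reads were assigned to these copies. UQCC6 and TTC41P, which overlap HSP90B1 by 805 and 105 exonic bases on the other strand, had 82 to 259 and 0 to 4 counts, and the log2 fold change of UQCC6 was -0.06 (adjusted p = 0.849).

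Promoters of ER chaperone genes carry the ER stress response element (ERSE), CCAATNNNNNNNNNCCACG, at which ATF6 and XBP1 act in the UPR. The RefSeq promoters of HSPA5 and HSP90B1 on GRCh38.p14 are printed as the 250 bases before the start, with ERSE matches on either strand in capitals, because of the 10 genes these are the 2 in which a match was found.
HSPA5, chr9:125241344-125241593, minus strand: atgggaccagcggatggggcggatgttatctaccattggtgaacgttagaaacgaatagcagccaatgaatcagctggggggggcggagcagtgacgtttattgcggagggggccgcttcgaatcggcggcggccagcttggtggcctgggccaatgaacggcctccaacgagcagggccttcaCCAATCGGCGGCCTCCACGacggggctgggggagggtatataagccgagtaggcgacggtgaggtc
HSP90B1, chr12:103930160-103930409, plus strand: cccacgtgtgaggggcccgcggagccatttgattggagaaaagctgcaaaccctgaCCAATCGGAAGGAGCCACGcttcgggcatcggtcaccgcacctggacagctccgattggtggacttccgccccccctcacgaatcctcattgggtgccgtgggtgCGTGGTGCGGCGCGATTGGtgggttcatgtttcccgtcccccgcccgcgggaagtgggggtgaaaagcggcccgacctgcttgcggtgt
The HSPA5 match begins 66 bases before the start, and those of HSP90B1 begin 194 bases before it and, on the opposite strand, 89 bases before it. Promoters were given for 9 of the 10 genes (the exception was KDELR2), and the search covered 300 bases, of which 50 follow the start. The motif occurred in 27 of 35116 promoters in the table, or 0.0769%. Of the 25 genes with a match, 15 were tested, 1 was called higher (PDIA6) and 1 lower (CALR), where 3.13% and 2.23% of all genes tested were called, and their median log2 fold change was -0.04. A match in these letters describes the promoter and is not a binding site by itself.

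The wider retrieval signal was followed through the coding sequences of the annotation. In 54 genes the canonical coding sequence ended in a tetrapeptide of the form [KRHQSA][DENQ]EL, a list that includes proteins without a signal peptide, and 42 of these were tested. 1 was called higher and 3 lower, against 3.13% and 2.23% of all genes tested, and the median log2 fold change was -0.03 (0.01 with upper-quartile factors). CALR, the calcium-binding lectin chaperone calreticulin, was at 268, 269.9 and 243 CPM in scramble and 194, 196 and 145 CPM in siRNA libraries. All siRNA libraries were lower, by a log2 fold change of -0.55 (adjusted p = 0.0382, edgeR), and the call held in 1 of 6 analyses that left out a library (without siRNA replicate 1, adjusted p = 0.0151), with values of -0.62 to -0.41 and an adjusted p up to 0.149 in the others. PDIA6, a protein disulfide isomerase, rose from 3.66 ± 0.394 to 13.9 ± 7.81 CPM (SD, n = 3), a log2 fold change of 1.89 (adjusted p = 0.0100), on 11 to 36 counts per scramble and 72 to 165 per siRNA library. Its largest value was in siRNA replicate 1, without which the log2 fold change was 1.32, and its call was lost without scramble replicate 2 (adjusted p = 0.0757). Other genes overlap 25.2% of its exonic bases. The other members that passed were RAB3IP (-0.58, adjusted p = 0.0193), a Rab regulator of the cytosol and nucleus, and CERCAM (-0.54, adjusted p = 0.0391). RAB3IP kept its call without siRNA replicate 1 or 3 and CERCAM without siRNA replicate 1, and both lost it in the other analyses without a library.

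Within 33 tested ER chaperones and folding enzymes, CALR and PDIA6 were again the 2 that passed, a share near the 5.36% of all genes tested, and the median log2 fold change was -0.05, with 12 positive and 21 negative values. The list held 35 genes. HYOU1 (4 to 38 counts) and TXNDC5 (1 to 3 counts), named after their values were seen, were not tested. Like PDIA6, other genes of few counts lay higher on average in siRNA libraries. PPIB had a log2 fold change of 1.31 (adjusted p = 0.128, edgeR). HYOU1 stood at 284% of its scramble mean, but TXNDC5 at 90.6%. HSPA5 and HSP90B1 had the highest CPM, not scaled for length, in this list and in the retrieval list. Of 23 tested UPR sensors and targets, edgeR called 2 lower, DDIT3 and DERL3, where 2.23% of all genes tested were called lower. DESeq2 called 3 lower, where it called 370 of the 12507 genes lower. The third was ATF4 (log2 fold change -0.56, adjusted p = 0.0263), named after its values were seen. An unadjusted edgeR p under 0.05 was reached by 8, all lower, where 2820 of 12507 genes reached it and 1501 of them were higher. By these 3 readings 0 rose. With no filter on low counts 7 were called, all lower, where 627 of the 23675 genes with a count were called lower. That fit gave far smaller adjusted p-values at a like SE. For KDELR2 it gave 4.72e-17 at an SE of 0.143, against 0.000376 at 0.126 with the filter (edgeR). For TRIB3 the SE was 0.133 there and 0.339 with the filter. Its 7 calls are therefore not on a par with those of the filtered fit. Without siRNA replicate 1 there were 3 calls, DDIT3, DERL3 and, higher, DNAJB9 (log2 fold change 0.69, adjusted p = 0.0169), an ER co-chaperone named after its values were seen. Over all genes 425 were called higher and 387 lower without that library. The median of the list was -0.18, with 8 positive and 15 negative values, and it was -0.01 without siRNA replicate 1 and -0.06 without scramble replicate 2. DDIT3 (CHOP), the transcription factor that the PERK and ATF4 branch induces, was at 127, 146 and 118 CPM in scramble and 53.8, 63.0 and 71.0 CPM in siRNA libraries. Its conditions were well separated, the log2 fold change was -1.06 ± 0.14 (SE; adjusted p = 0.00249, edgeR), and the call held without each library in turn. DERL3, a derlin of ER-associated degradation, was at 21.6, 20.9 and 22.3 CPM in scramble and 15.6, 8.89 and 12.3 CPM in siRNA libraries. Its log2 fold change of -0.81 (adjusted p = 0.0289) kept its call in 1 of the 6 analyses without a library, that without siRNA replicate 1. Other genes overlap 77.0% of the exonic bases of DERL3 and 39.6% of those of DDIT3, and the use of strand in counting is not given in the sources used here. The genes of the list with the highest CPM were TRIB3, an ATF4 and CHOP target that spread from 515 to 1155 CPM within the scramble libraries (log2 fold change -0.88, adjusted p = 0.146, and -0.54 without siRNA replicate 1), and SEC61B, a translocon subunit (0.08, adjusted p = 0.732).

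Of the listed genes that act with the coat and the receptors or in exit from the ER, 1 passed edgeR's test. Over all 12507 genes tested, 5.36% passed it and 2820 had an unadjusted p under 0.05. At the first share, lists this short would hold few calls. In the list of the ARF cycle and the p24 cargo adaptors, 0 of 17 genes passed with edgeR, with DESeq2 or at an unadjusted p under 0.05, and the median log2 fold change was 0.02. ARF1, the GTPase that recruits coatomer, was at 898 ± 43.7 CPM in scramble and 873 ± 134 CPM in siRNA libraries, and TMED9, a p24 cargo receptor, at 512 ± 13.2 and 457 ± 20.1 CPM (SD, n = 3). Of the tethers and SNAREs with which COPI vesicles meet the ER, 0 of 6 passed by the same 3 readings and the median was -0.20. SEC22B, also listed there and named after its values were seen, was at 0 in every library and was not tested. STX18 (-0.28, adjusted p = 0.271) and USE1 (0.01, adjusted p = 0.987), both SNAREs of the ER membrane, had the highest CPM, not scaled for length. For the opposite route, 1 of 19 genes of the COPII coat and ER exit passed, SEC24C, a cargo-binding subunit, at 70.0, 61.6 and 60.1 CPM in scramble and 96.5, 89.1 and 83.6 CPM in siRNA libraries. The log2 fold change of SEC24C was 0.49 (adjusted p = 0.0424) and its call held in 2 of 6 analyses without a library, those without siRNA replicate 1 or 3. Other genes overlap 42.8% of its exonic bases. SURF4, an ER cargo receptor, and SEC13, an outer COPII subunit, had the highest CPM of the list and log2 fold changes of -0.18 (adjusted p = 0.365) and -0.46 (adjusted p = 0.0693).

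**Figure D4:**
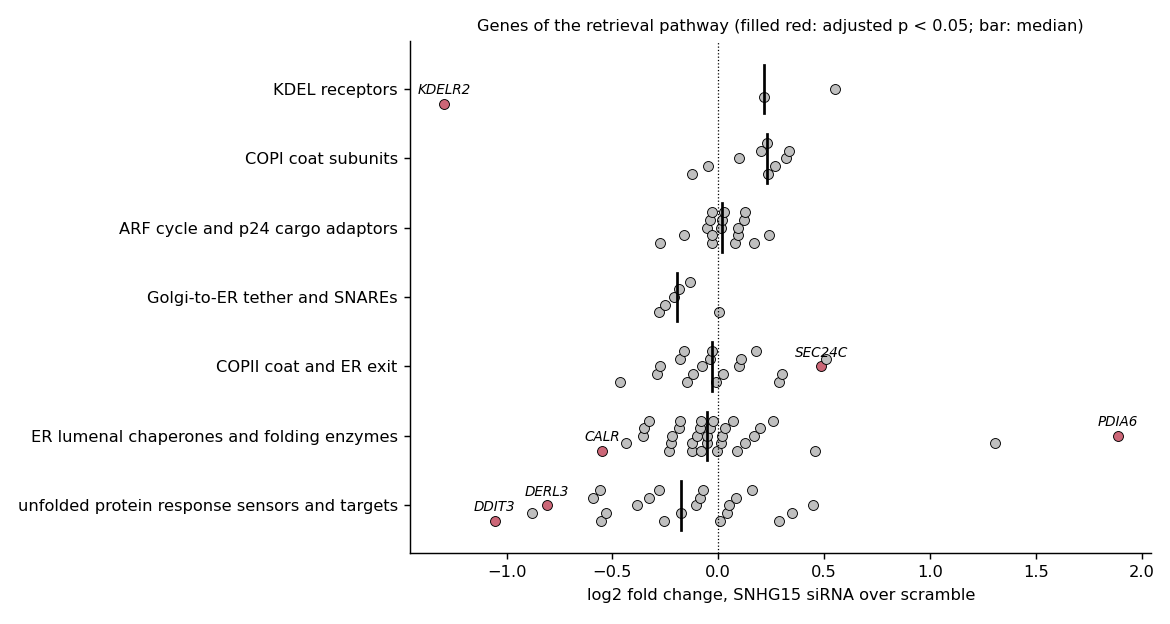
Log2 fold change (SNHG15 siRNA over scramble) of every tested gene in 7 lists, 1 point a gene, with the list's median as a black bar; red points have an adjusted p below 0.05. KDELR2 is the most negative gene of all lists at -1.30, PDIA6 the most positive at 1.89, and no COPI subunit is red.

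Over the 6 libraries the log2 CPM of KDELR2 was most like that of RCC1 (Pearson's r = 0.995), SNHG15 itself (0.993) and LYAR (0.992). These are descriptions over 6 libraries that share the 2 conditions, so genes that differ strongly between the conditions resemble each other. RCC1, the nucleotide exchange factor of the GTPase Ran, was at 276, 279 and 258 CPM in scramble and 128, 150.1 and 132 CPM in siRNA libraries. LYAR, a nucleolar protein gene, was at 257, 258 and 263 CPM in scramble and 171, 195 and 177 CPM in siRNA libraries. Both lay lower in every siRNA library, with log2 fold changes of -0.99 (adjusted p = 0.00177) and -0.52 (adjusted p = 0.0221, edgeR); the call of LYAR held in 1 of 6 analyses without a library, that without siRNA replicate 1. In the siRNA libraries KDELR2, RCC1 and LYAR were each lowest in replicate 1 and highest in replicate 2, while SNHG15 rose from replicate 1 to replicate 3.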

How the data were processed

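RNA of 6 LoVo libraries was sequenced with 75 bp paired-end reads. The deposited values are whole-number counts of reads per gene that the authors did not normalize. The submitters' processing notes name STAR, featureCounts and hg19, while the study's methods name bowtie2 and DESeq2, and the labels give TRIzol for the RNA where the methods give a Maxwell kit. Strand and multiply placed reads in counting are not given in the sources used here. All columns were assigned from their titles (0 left out).

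Genes passing filterByExpr (12507 of 63677; minimum count 10, total 15) were scaled with TMM and tested with edgeR 4.0.16 (R 4.3.3) by the quasi-likelihood test, 3 siRNA against 3 scramble libraries, with a call at an adjusted p under 0.05 (Benjamini-Hochberg over all genes tested). This called 392 genes higher and 279 lower. CPM use the TMM-scaled totals. Standard errors were derived from the F statistics, and 95% intervals from the t quantile. Totals of 3446922 to 10256710 counts set the counting precision, and intervals cover the spread between these libraries. The steps were tested on simulated data.

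Positions, lengths, overlaps and coding ends came from GENCODE release 44 on GRCh37, in which 8012 identifiers had no entry. With no protein table used, the retrieval signature was read from canonical coding sequences, a choice made after the files were seen. The members and lists were chosen with earlier results of these data known. Genes named were the 10 members, SNHG15, called genes (at most 5) and the 2 of highest mean CPM of each list, the 3 genes most like KDELR2, and counted pseudogenes and overlapping genes of members. Alternatives were DESeq2 1.42.0, RLE and upper-quartile factors, other filters, a replicate block, leaving out each library and, for levels, other transcript lengths. The canonical length was added after seeing the data.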

Additional observations from a re-analysis of the deposited data

How the results depend on the processing

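KDELR2 stayed lower and past the threshold in all 12 alternatives, with log2 fold changes of -1.32 to -1.26 under other tools, factors and filters and -1.37 to -1.22 without 1 library. The count of members that passed was 1 in edgeR, 2 with no filter on low counts, and 1 to 3 without 1 library. The count of pathway genes that passed was 6, then 15 with no filter and 2 to 9 without 1 library. Over all genes the 671 calls became 1312 with no filter, where 23675 genes were tested. They became 139 to 812 without 1 library (812 without siRNA replicate 1, 139 without scramble replicate 2). The cause was not tested. The log2 fold change of ARCN1 changed sign among the analyses without 1 library, from -0.15 to 0.083 (0.083 without scramble replicate 2 and 0.012 without siRNA replicate 3). The labels do not say what a replicate number marks. Deviations of same-numbered libraries correlated at -0.07, 0.16 and -0.04, against -0.17 to 0.14 for differently numbered ones. So few libraries cannot settle whether they were paired. With a replicate block 543 genes passed, KDELR2 kept its call, and SEC24C (adjusted p = 0.0586) and CERCAM (adjusted p = 0.0660) lost theirs. CALR (adjusted p = 0.0509) and CERCAM (adjusted p = 0.0509) also lost theirs with 10 counts required in every library. SEC13 passed with DESeq2 (adjusted p = 0.0331), with no filter and without siRNA replicate 3 (adjusted p = 0.0401). TRIB3 passed only with no filter, where its SE was 0.133 in place of 0.339. The medians of the ARF, COPII, ER chaperone and retrieval lists changed sign when certain libraries were left out, within -0.09 and 0.06, and that of the COPII list was 0.01 with upper-quartile factors. Genes with the lowest counts are limited by depth. The share of KDELR2 among the receptors was 30.7% and 13.4% by union exon length, 31.2% and 13.7% by longest transcript and 30.6% and 13.4% by canonical transcript.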
